A study of Mus musculus with 6 samples.

Results

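The genes described here encode the proteasome, its regulatory caps, its activators and the chaperones that assemble it. They were taken by symbol, as every gene named Psma, Psmb, Psmc, Psmd, Psme, Psmf or Psmg followed by a digit, with pseudogenes left out. This rule found 49 of the 37620 genes in a table of read counts from mouse heart apex, and 48 of them passed the filter on low counts. The DIR group held 3 samples from wild-type C57/BL6J mice that received the vehicle of Yohimbine and, 30 min later, 10 µg/kg Dexmedetomidine, with surgery 20 min after the drug. The IR group held 3 samples from wild-type C57/BL6J mice that received the vehicles of both drugs before surgery, at times the labels do not give. All mice then underwent 30 min of myocardial ischaemia and 120 min of reperfusion, and infusions ran by tail vein within 10 min. Dexmedetomidine is a sedative that activates alpha-2 adrenergic receptors, and Yohimbine blocks them. Age, sex and whether each sample came from a separate animal are not given in the labels, so the spread between samples may be partly technical.

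The proteasome is the barrel-shaped protease that degrades proteins tagged with ubiquitin. Its 20S core stacks rings of alpha subunits (Psma genes), which gate the entrance, and rings of beta subunits (Psmb genes), of which Psmb5, Psmb6 and Psmb7 carry the cutting sites. The 19S cap recognises ubiquitin, removes it, and threads the substrate into the core with a ring of ATPases (Psmc genes). Interferon gamma induces Psmb8, Psmb9 and Psmb10, which take the places of the cutting subunits in the immunoproteasome, and Psme proteins can dock on the core in place of the cap. Cardiac muscle depends on this system to turn over damaged and sarcomeric proteins, and the activity of the cardiac proteasome is known to drop after ischaemia.

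Most proteasome transcripts differed little between DIR and IR. Of the 48 tested genes, 18 were higher and 30 lower in DIR, with a median log2 fold change (DIR over IR) of -0.07, beside 0.0032 over all 14738 tested genes. In the edgeR quasi-likelihood test no proteasome gene passed an adjusted p of 0.05, and neither did any of the 14738 genes (0%). At an unadjusted p under 0.05, 2 proteasome genes were higher in DIR, Psmc6 and Psme4, beside 12.5% of all tested genes, and 3 were lower, Psmb6, Psmb7 and Psmd4, beside 9.03%. In this fit the count higher in DIR was thus below the background, and the count lower in DIR was near it. The 3 DIR libraries did not overlap the 3 IR libraries for 5 genes that were higher in DIR (Psmc6, Psmd1, Psmd12, Psmd14 and Psma1), beside 15.6% of all genes, and for 6 that were lower (Psmd4, Psma8, Psmb5, Psmb6, Psmb7 and Psmg4), beside 12% of all genes. For the other 37 the groups overlapped. Other fits of the same counts called more genes. DESeq2 called 1 proteasome gene, Psmc6, as higher at an adjusted p of 0.014, beside 6.43% of all genes higher and 2.85% lower. Limma-voom with quality weights called Psmc6 and Psme4 higher, each at an adjusted p of 0.020, beside 8.79% of genes, and Psmb6 lower at 0.042, beside 5.2%.

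The counts depended on single libraries. Without IR3, edgeR called Psmc6 (adjusted p = 0.041) and Psme4 (0.039) higher, beside 6.13% of all genes called higher. In that fit 10 proteasome genes in place of 3 were lower in DIR at an unadjusted p under 0.05, beside 11.7% of all genes. Their number was 6 without DIR1, beside 11.3% of all genes, 1 without IR1, beside 7.01%, and 0 without DIR2, DIR3 or IR2, beside 4.72%, 4.06% and 5.14%. Leaving out 1 library moved the log2 fold change by over 1.5 times, or turned its sign, for 16 of the 24 proteasome genes named by rule, and leaving out IR2 did so for 11. Between 16 and 23 of the 48 genes were higher in DIR when each library was left out in turn, the most without DIR3. Among the 36 tested genes with a mean of over 20 CPM (counts scaled to a library of 1e6) in IR, the SE of the log2 fold change ranged between 0.11 and 0.16.

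**Figure D1:**
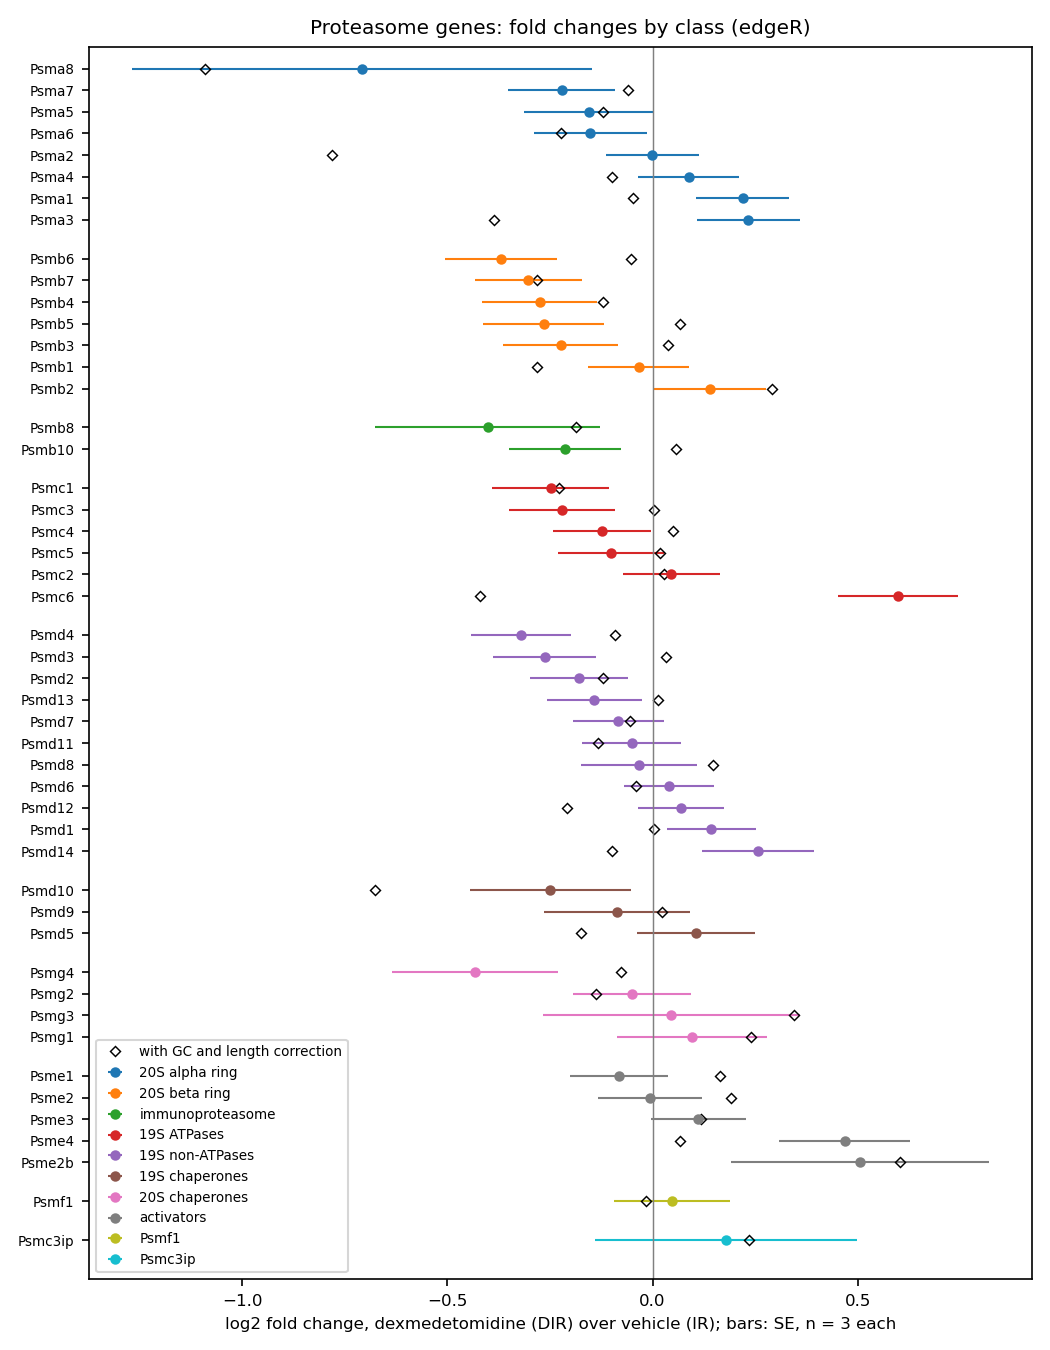
Log2 fold change of each of the 48 tested genes, DIR over IR, from edgeR (coloured points, bars are the SE, n = 3 libraries each), grouped by class, with the value after a GC and length correction as open diamonds. Psmc6 and Psme4 lie to the right of most points and 6 of the 7 beta ring genes to the left of 0, and the diamonds of Psma2, Psma3, Psmc6 and Psmd10 lie well to the left of their coloured points.

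The libraries differed in ways that touch these values. Gene counts summed to between 42.7 and 48.6 M in DIR libraries and between 50.3 and 56.6 M in IR libraries, of which proteasome genes took 0.269% to 0.325% in DIR and 0.325% to 0.329% in IR. Genes of the mitochondrial genome took 27.1%, 36.9% and 38.2% of counts in DIR1, DIR2 and DIR3, against 25.2%, 22.0% and 23.3% in IR1, IR2 and IR3. Of the counts outside the mitochondrial genome, proteasome genes took 0.446%, 0.455% and 0.436% in DIR1, DIR2 and DIR3. Their share of these counts was 0.440%, 0.416% and 0.427% in IR1, IR2 and IR3, so the groups overlapped. The 7 cardiomyocyte markers summed to between 36612 and 39844 CPM in DIR and between 40173 and 47070 CPM in IR, and all 7 were above 0 in every library. They did not share a direction, with 2 higher and 5 lower in DIR. Myh6, the largest of them, had between 11191 and 14578 CPM in DIR and between 15761 and 19010 CPM in IR. Log2 fold changes were -0.47 for Myh6 and 0.48 for Pln, or -0.32 and -0.37 after a GC and length correction. The 4 atrial markers summed to 19.6, 7.52 and 59.9 CPM in DIR1, DIR2 and DIR3, against 22.3, 31.5 and 15.3 CPM in IR1, IR2 and IR3. Of these, the atrial light chain Myl7 and sarcolipin (Sln) reached 11.9 and 11.1 CPM in DIR3 and were at most 0.019 CPM in the other libraries, with Myl7 at 0 in DIR2 and in each IR library and Sln at 0 in DIR1, DIR2 and IR2. Leukocyte markers, 10 genes, summed to between 209 and 292 CPM in DIR and between 197 and 250 CPM in IR, and fibroblast markers, 5 genes, to between 858 and 1117 CPM in DIR and between 753 and 857 CPM in IR. The 5 endothelial markers summed to between 945 and 1003 CPM in DIR and between 979 and 1083 CPM in IR. The part of these differences in the values below was not tested, and in pieces of tissue fewer cells of a type cannot be told apart from less RNA per cell.

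GC content moved with the fold changes. Over the 14329 tested genes with a known principal transcript, the Spearman correlation of GC content with the log2 fold change was -0.64, and over the 48 proteasome genes it was -0.53, a description across genes that share the same 6 libraries. When genes were split into 5 GC bins of equal size, the median log2 fold change was 0.47 in the lowest bin and -0.30 in the highest. None of the 12 proteasome genes with a GC content of 52.3% to 56.0% was higher in DIR, and 6 of the 9 with the lowest GC content were. An edgeR fit with the GC and length trend of each library removed brought the correlation over all genes to 0.016, while over the proteasome genes it turned to 0.58. In that fit 21 proteasome genes were higher and 27 lower in DIR, with a median of -0.05. At an unadjusted p under 0.05, 1 was higher, Psmb2, beside 5.67% of all genes, and 6 were lower, Psma2, Psma3, Psmb1, Psmb7, Psmc6 and Psmd10, beside 6.25%. None of the 14738 genes passed an adjusted p of 0.05 in that fit. Corrected values of the genes described in full are given below.

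**Figure D2:**
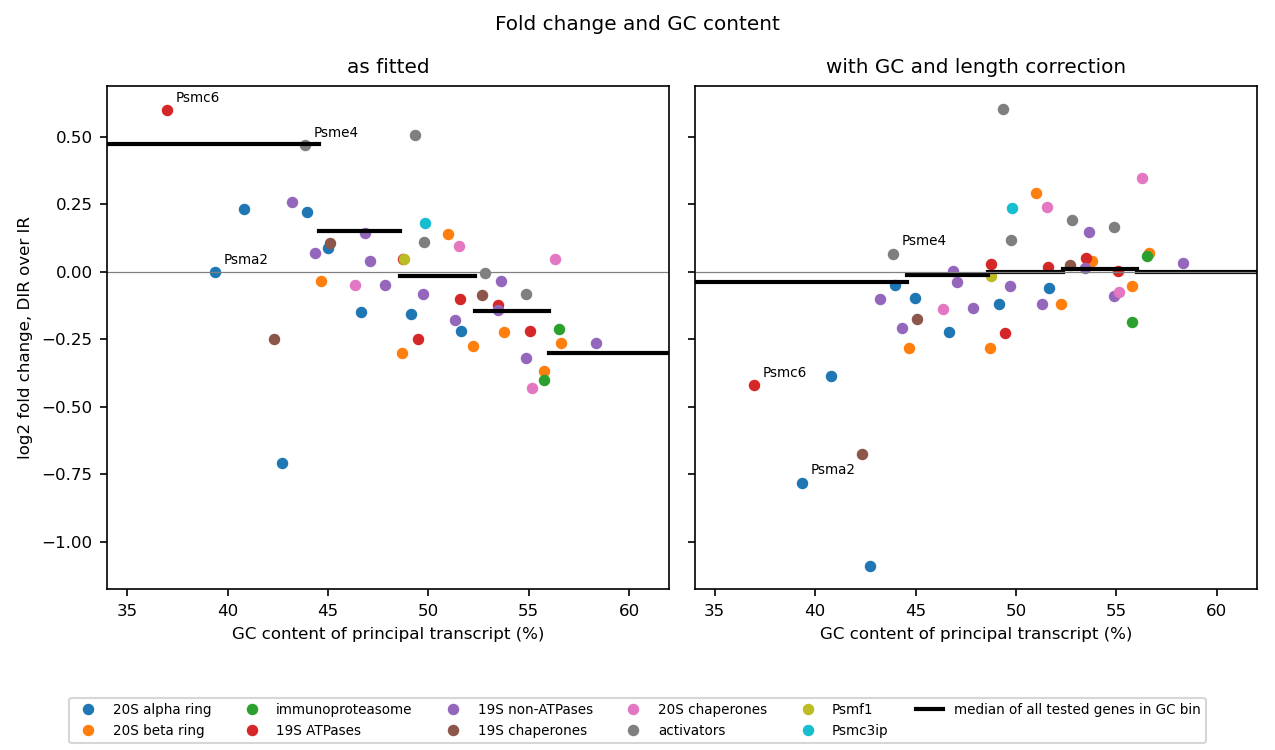
Log2 fold change, DIR over IR, of the 48 tested genes (points, coloured by class) against the GC content of the principal transcript, as fitted (left) and with the GC and length correction (right). Black bars are medians of all tested genes in 5 GC bins, which run downward on the left between 0.47 and -0.30 and lie near 0 on the right, where the low-GC genes Psma2 and Psmc6 lie at -0.78 and -0.42.

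Proteasome genes are known to be induced together, when the proteasome is inhibited, by the transcription factor NRF1, encoded by Nfe2l1, which binds antioxidant response elements in their promoters. The core of this element, TGACNNNGC on either strand, was searched in the RefSeq promoter windows (250 bases before to 50 after the start, build GRCm38.p6) that matched 41 of the genes. It was present for 6 of the 41 (14.6%), beside 14% of 27025 genes, and these were Psmb5, Psmb6, Psmc6, Psmd9, Psmd12 and Psme4. The NF-Y box CCAAT was present for 14 of the 41 (34.1%), beside 41.1% of all genes. The interferon-stimulated core, GAAA repeated after a gap of 2 bases, was present for 5 (12.2%), beside 3.99%, and the STAT core TTCNNNGAA for 3 (7.32%), beside 9.55%. A match here is only a run of letters, and the share with the NRF1 core was near that of all genes. Windows of 250 bases before to 20 after the start are shown for the 4 of these genes that the naming rule also picked, a pair of cutting subunits, a cap ATPase and an activator, with the match in capitals. They lie at chr14:54617976-54618245 on the minus strand (Psmb5), chr11:70525107-70525376 on the plus strand (Psmb6), chr14:45329574-45329843 on the plus strand (Psmc6) and chr11:30771525-30771794 on the plus strand (Psme4), each written 5′ to 3′ on the strand of its gene.
Psmb5: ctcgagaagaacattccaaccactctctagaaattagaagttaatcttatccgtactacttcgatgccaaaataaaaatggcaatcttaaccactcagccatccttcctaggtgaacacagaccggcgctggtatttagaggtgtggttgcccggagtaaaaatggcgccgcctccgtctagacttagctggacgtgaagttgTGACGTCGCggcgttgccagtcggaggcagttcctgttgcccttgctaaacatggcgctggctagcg
Psmb6: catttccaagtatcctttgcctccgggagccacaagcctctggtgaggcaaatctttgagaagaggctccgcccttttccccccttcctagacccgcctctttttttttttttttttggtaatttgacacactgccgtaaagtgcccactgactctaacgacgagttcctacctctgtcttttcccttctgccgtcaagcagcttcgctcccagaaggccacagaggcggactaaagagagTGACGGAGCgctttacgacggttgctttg
Psmc6: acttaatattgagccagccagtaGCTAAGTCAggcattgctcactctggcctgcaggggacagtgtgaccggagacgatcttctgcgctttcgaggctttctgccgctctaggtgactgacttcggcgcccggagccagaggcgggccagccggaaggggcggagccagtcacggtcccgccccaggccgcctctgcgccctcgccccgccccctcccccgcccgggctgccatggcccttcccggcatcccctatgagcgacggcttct
Psme4: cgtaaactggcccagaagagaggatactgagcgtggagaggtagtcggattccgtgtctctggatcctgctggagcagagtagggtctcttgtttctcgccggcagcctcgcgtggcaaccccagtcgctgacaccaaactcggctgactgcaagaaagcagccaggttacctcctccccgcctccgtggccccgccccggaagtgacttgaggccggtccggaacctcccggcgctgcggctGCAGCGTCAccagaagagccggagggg

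The match began 47 bases before the start of Psmb5 and 9 bases before that of Psmb6, both on the strand of the gene. In Psmc6 it lay on the other strand, far upstream, beginning at position -227, and in Psme4 on the other strand across the start itself. The 6 genes with a match did not share a direction. Log2 fold changes were negative for Psmb5, Psmb6 and Psmd9 (-0.27, -0.37 and -0.087) and positive for Psmc6, Psmd12 and Psme4 (0.60, 0.069 and 0.47).

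Levels per length were set with the gene lengths of the deposited table, as CPM divided by length in kilobases (FPKM). The most abundant beta genes were Psmb1 at 95.6 ± 7.9 FPKM in DIR and 97.9 ± 8.2 FPKM in IR, and Psmb7 at 85.3 ± 3.5 FPKM in DIR and 105 ± 14.4 FPKM in IR (SD, n = 3 each). Alpha ring genes other than Psma8 averaged between 23.0 FPKM (Psma3) and 68.9 FPKM (Psma6) over the 6 libraries, although the core holds its subunits in equal number. ATPase genes averaged between 15.4 FPKM (Psmc2) and 57.9 FPKM (Psmc3), and other cap genes between 9.77 FPKM (Psmd14) and 48.5 FPKM (Psmd2). Neighbours in these orders, such as Psmd7 and Psmd8 at 46.0 and 45.8 FPKM, did not differ beyond their spread. The order also depended on the length used, since Psma7 averaged 28.1 FPKM by the deposited length and 94.4 FPKM by the length of its principal transcript. Psma8, the alpha subunit of the testis proteasome, averaged 0.260 FPKM. The thymus-specific subunit Psmb11 had 0 counts in all 6 libraries, which allows at most 0.0512 to 0.0770 CPM per library from 3 counts, counting error only.

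**Figure D3:**
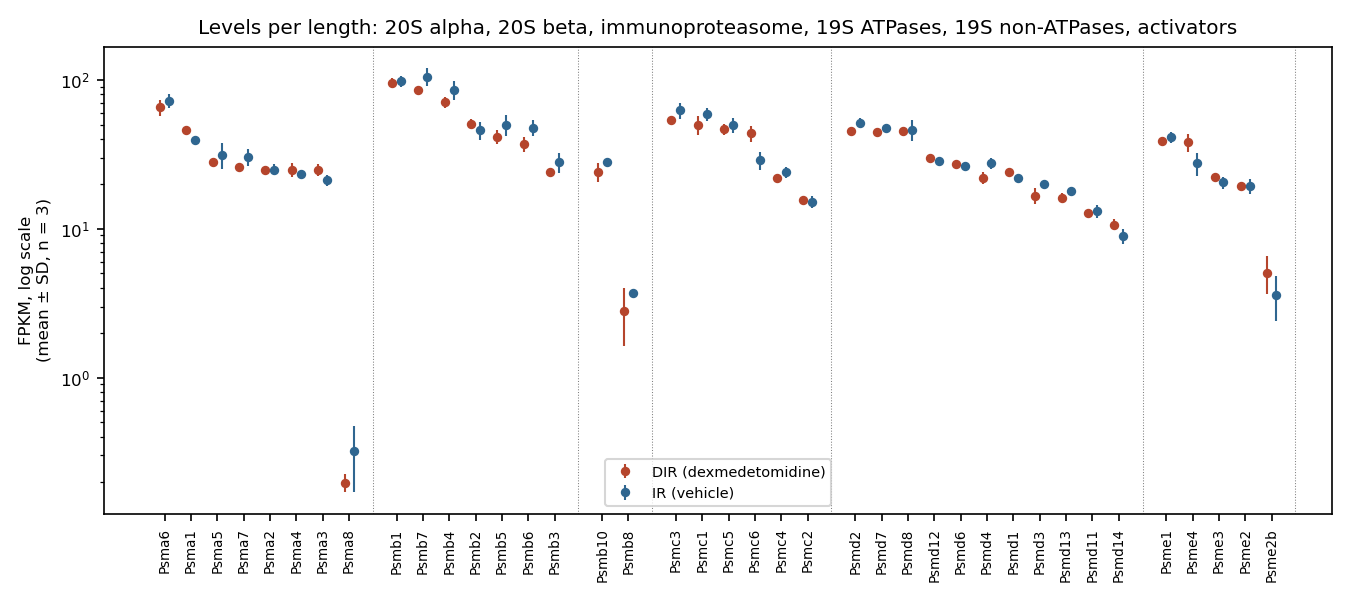
FPKM (log axis) of the core, immunoproteasome, cap and activator genes, mean ± SD of 3 libraries, DIR in red and IR in blue, ordered by level within each class. By the deposited lengths used here Psmb1 and Psmb7 are highest, Psma8 is lowest at 0.260 FPKM on average over 6 libraries, and Psmb8 lies below the other beta genes.

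The cutting subunits of the 20S core had lower values in DIR. Psmb6 (ENSMUSG00000018286), which cuts after acidic residues, had 77.9, 63.3 and 65.5 CPM in DIR1, DIR2 and DIR3, against 85.7, 101 and 80.3 CPM in IR1, IR2 and IR3. Each DIR library lay below each IR library, the nearest being DIR1 and IR3. The log2 fold change was -0.37 (SE 0.14, edgeR adjusted p = 0.16) and -0.052 once GC and length were corrected for. Psmb7 (ENSMUSG00000026750), which cuts after basic residues, had 108, 104 and 99.2 CPM in DIR, against 126, 146 and 111 CPM in IR, again with no overlap. This gave a log2 fold change of -0.30 (SE 0.13, edgeR adjusted p = 0.22), and the corrected value was -0.28, or -0.82 with the GC content and length of the longest transcript. Psmb7 shares exon sequence with Nek6 on the opposite strand, so its counts may include reads of that gene. Psmb5 (ENSMUSG00000022193), which cuts after hydrophobic residues, had 41.1, 40.4 and 33.5 CPM in DIR, against 42.4, 54.6 and 41.2 CPM in IR. The highest DIR and the lowest IR library of Psmb5 nearly touched, and IR2 stood above the rest. The log2 fold change was -0.27 (SE 0.15, edgeR adjusted p = 0.33), the value without IR2 was -0.13, and the corrected value was 0.068.

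The other beta subunits hold the ring together and do not cut. Psmb4 had 105, 99.6 and 89.0 CPM in DIR, against 127, 129.9 and 98.2 CPM in IR, and Psmb3 had 59.4, 54.7 and 52.0 CPM in DIR, against 69.5, 71.4 and 53.2 CPM in IR. In both, IR1 and IR2 lay above the DIR libraries and IR3 lay among them, and the log2 fold changes were -0.28 for Psmb4 (-0.12 corrected) and -0.22 for Psmb3 (0.038 corrected). Psmb2 alone in the ring had a positive fold change, 0.14 (SE 0.14, edgeR adjusted p = 0.59), with 56.7, 59.9 and 65.7 CPM in DIR, against 59.4, 59.9 and 46.2 CPM in IR, and only IR3 stood apart. It was 0.027 without IR3 and 0.29 with the correction. The log2 fold change of Psmb1 was -0.034 (SE 0.12), -0.28 corrected and 0.017 corrected by the longest transcript. Of the 7 beta genes, 6 were lower and 1 was higher in DIR, with a median log2 fold change of -0.27. After correction for GC and length 4 were lower and 3 higher, and the median was -0.05. Summed over the ring, the beta genes had 549.9, 527 and 495 CPM in DIR, against 612, 672 and 523 CPM in IR. IR3 lay within the range of DIR.

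**Figure D4:**
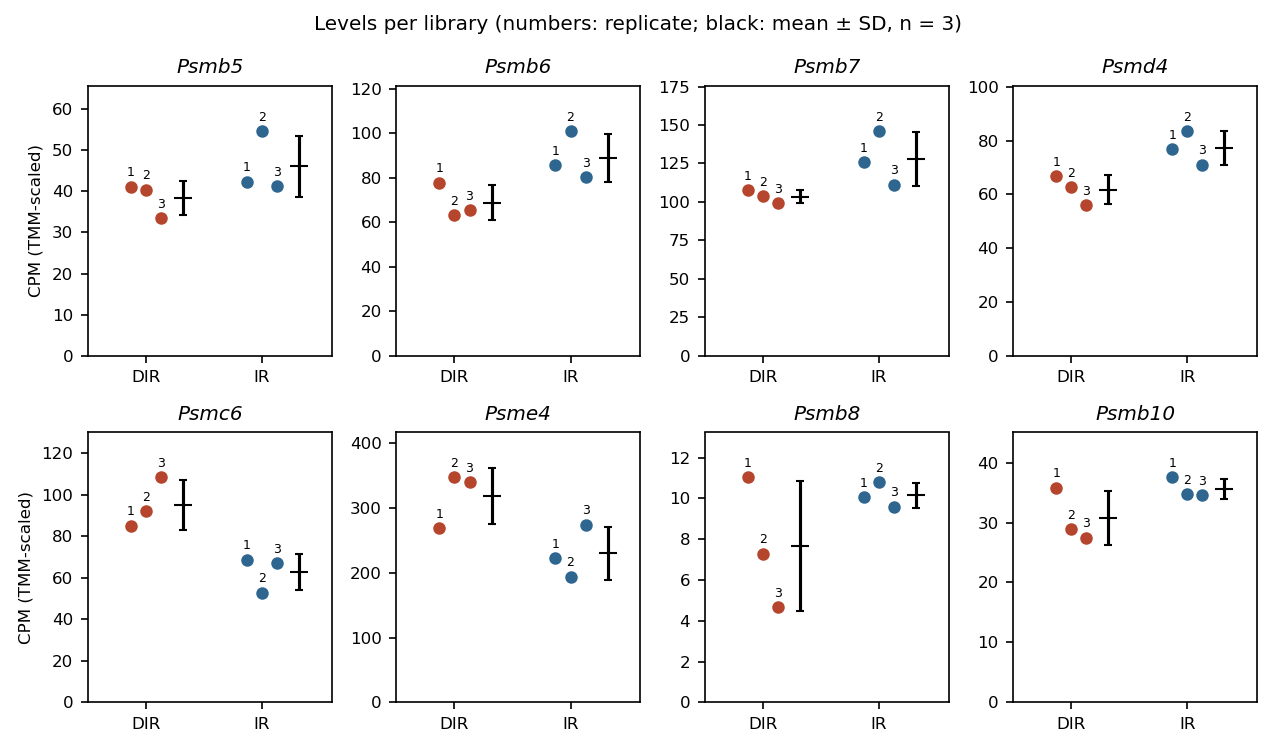
CPM of 8 genes in each library (points with replicate numbers, DIR in red left, IR in blue right, black marks are the mean ± SD, n = 3, axes start at 0). Psmb5, Psmb6, Psmb7 and Psmd4 lie lower in every DIR library than in any IR library, Psmc6 lies higher, and for Psme4, Psmb8 and Psmb10 the groups overlap.

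Alpha subunits gave no common direction as fitted. Psma7 had 82.8, 80.8 and 75.4 CPM in DIR, against 101, 99.2 and 78.8 CPM in IR, with IR1 and IR2 above the rest (log2 fold change -0.22, SE 0.13, edgeR adjusted p = 0.35, corrected -0.060). Psma1 had 93.6, 103 and 92.1 CPM in DIR, against 88.0, 80.1 and 79.6 CPM in IR, with no overlap (log2 fold change 0.22, SE 0.11, edgeR adjusted p = 0.29, corrected -0.048). Psma8 had under 1 CPM in each library. With 0.369, 0.359 and 0.283 CPM in DIR, against 0.853, 0.423 and 0.380 CPM in IR, its log2 fold change of -0.71 had an SE of 0.56. It was -0.25 without IR1 and -1.09 with the correction. Of the 8 alpha genes, 3 were higher and 5 lower in DIR, with a median of -0.08, and Psma4, Psma5 and Psma6 lay between -0.16 and 0.088. However, all 8 were lower after correction for GC and length, with a median of -0.17. By the longest transcript 2 were higher and 6 lower. The correction did not level proteasome genes of low GC content with other genes. In the lowest GC bin the corrected median was -0.39 for the 9 proteasome genes, beside -0.040 for all genes.

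Within the ring, Psma2 shifted furthest under that correction. It had 67.1, 66.2 and 66.2 CPM in DIR, against 70.0, 69.5 and 60.1 CPM in IR, values that overlapped almost fully, and a log2 fold change of -0.0009 (SE 0.11). Psma2 has a GC content of 39.4%, within the lowest of the 5 GC bins, whose median log2 fold change was 0.47, and its corrected value was -0.78. DESeq2 with the same correction called it lower at an adjusted p of 0.011, the only proteasome gene in that fit, beside 0.874% of genes called lower and 0.974% called higher. Psma3 had 86.6, 103 and 101 CPM in DIR, against 90.6, 79.3 and 76.6 CPM in IR, and its log2 fold change was 0.23 as fitted and -0.39 corrected. Lower after correction thus means lower relative to genes of like GC content, not lower in CPM.

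In the cap, the ATPase Psmc6 had the largest fold change. Psmc6 (ENSMUSG00000021832), also called Rpt4, had 85.1, 92.1 and 108 CPM in DIR1, DIR2 and DIR3, against 68.7, 52.9 and 67.0 CPM in IR1, IR2 and IR3. Each DIR library lay above each IR library, with IR2 the lowest. Its log2 fold change of 0.60 (SE 0.15, edgeR adjusted p = 0.10) had the smallest p of all proteasome genes. Psmc6 has a GC content of 37.0%, the lowest among them, and its log2 fold change after correction for GC and length was -0.42, the opposite direction. The other ATPases had log2 fold changes between -0.25 and 0.046. Psmc1 had 87.4, 73.9 and 65.0 CPM in DIR, against 89.5, 98.8 and 80.6 CPM in IR, and a log2 fold change of -0.25 (SE 0.14, edgeR adjusted p = 0.34), or -0.23 corrected. Psmc3 had 143, 142 and 134 CPM in DIR, against 166, 181 and 141 CPM in IR, and its -0.22 (SE 0.13, edgeR adjusted p = 0.35) was 0.0027 with the correction. Over the 6 ATPases the median was -0.11 as fitted and 0.01 corrected.

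The non-ATPase part of the cap includes the ubiquitin receptor Psmd4, also called Rpn10. Psmd4 (ENSMUSG00000005625) had 66.7, 62.7 and 56.1 CPM in DIR, against 76.9, 83.6 and 71.0 CPM in IR, with no overlap. The log2 fold change was -0.32 (SE 0.12, edgeR adjusted p = 0.17), and -0.092 with the correction. The lid subunit Psmd3 had 93.9, 78.0 and 75.6 CPM in DIR, against 101, 103 and 93.0 CPM in IR, so that DIR1 lay just above IR3. Psmd3 had a log2 fold change of -0.26 (SE 0.13, edgeR adjusted p = 0.26), or 0.033 corrected. Psmd14, the deubiquitinase that frees ubiquitin from the substrate, had 27.9, 32.8 and 29.5 CPM in DIR, against 25.8, 27.6 and 22.1 CPM in IR, with no overlap but a narrow gap between DIR1 and IR2. Its log2 fold change was 0.26 (SE 0.14, edgeR adjusted p = 0.30), or -0.10 corrected. Psmd1, a scaffold of the base, had 117, 124 and 122 CPM in DIR, against 112, 111 and 106 CPM in IR. Psmd12, of the lid, had 78.7, 81.0 and 78.6 CPM in DIR, against 77.4, 75.6 and 74.2 CPM in IR. Both separated the groups by small steps, with log2 fold changes of 0.14 for Psmd1 (0.0036 corrected) and 0.069 for Psmd12 (-0.21 corrected). Over all 11 genes the log2 fold changes lay between -0.32 and 0.26. Of the 11 genes, 4 were higher and 7 lower in DIR, with a median of -0.05 in both fits.

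Among activators, Psme4, also called PA200, had the smallest p. It caps the core without ubiquitin and is known for the breakdown of acetylated histones. Psme4 (ENSMUSG00000040850) had 268, 347 and 340.0 CPM in DIR1, DIR2 and DIR3, against 223, 194 and 274 CPM in IR1, IR2 and IR3. DIR2 and DIR3 stood above the rest, and IR3 lay just above DIR1. The log2 fold change was 0.47 (SE 0.16, edgeR adjusted p = 0.14), and 0.066 with the correction. Psme1 and Psme2, which form the PA28 ring induced by interferon, had fitted values near 0. Psme1 had 90.8, 80.3 and 85.7 CPM in DIR, against 92.3, 97.4 and 82.2 CPM in IR (log2 fold change -0.082, SE 0.12, corrected 0.17), and Psme2 had 35.4, 33.7 and 33.0 CPM in DIR, against 32.6, 38.6 and 31.2 CPM in IR (log2 fold change -0.0053, SE 0.13, corrected 0.19). The nuclear activator Psme3 had 63.2, 64.5 and 67.7 CPM in DIR, against 60.7, 65.6 and 54.7 CPM in IR (log2 fold change 0.11, SE 0.12, corrected 0.12). Psme2b, a near copy of Psme2 whose reads cannot be assigned with certainty, had 5.39, 2.98 and 4.37 CPM in DIR, against 2.36, 4.15 and 2.49 CPM in IR (log2 fold change 0.51, SE 0.31, corrected 0.60). Of the 5 activator genes, 3 were higher and 2 lower in DIR, with a median log2 fold change of 0.11, and all 5 were higher after correction, with a median of 0.17, beside -0.0053 over all tested genes in that fit. Psmf1, which can inhibit the core, had 14.6, 14.8 and 16.7 CPM in DIR, against 15.7, 13.6 and 15.3 CPM in IR (log2 fold change 0.047, SE 0.14, corrected -0.016). Psmf1 and the activators other than Psme4 had no edgeR adjusted p under 0.38.

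Of the immunoproteasome genes, Psmb8 averaged 3.26 FPKM and Psmb10 26.1 FPKM over the 6 libraries. Psmb8 had 11.03, 7.29 and 4.67 CPM in DIR1, DIR2 and DIR3, against 10.1, 10.8 and 9.59 CPM in IR1, IR2 and IR3. The IR libraries were close together, while DIR1 was the highest of all 6 and DIR3 the lowest. For Psmb8 the log2 fold change was -0.40 (SE 0.27, edgeR adjusted p = 0.43), -0.15 without DIR3, -0.76 without DIR1 and -0.19 with the correction. Psmb10 had 35.8, 28.9 and 27.5 CPM in DIR, against 37.5, 34.8 and 34.5 CPM in IR, with DIR1 among the IR libraries (log2 fold change -0.21, SE 0.14, edgeR adjusted p = 0.40, corrected 0.057). Per length, Psmb8 stood to its constitutive partner Psmb5 as 0.0904, 0.0608 and 0.0470 in DIR, against 0.0801, 0.0666 and 0.0784 in IR. The ratio of Psmb10 to Psmb7 was 0.318, 0.266 and 0.265 in DIR, against 0.285, 0.227 and 0.297 in IR. Both ratios overlapped between the groups. Psmb9 was not analysed here.

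The Psmd and Psmg chaperones that assemble the proteasome had between 2.29 and 19.3 CPM in every library. Psmg4, of the chaperones that build the alpha ring, had 5.39, 5.18 and 4.47 CPM in DIR, against 6.21, 8.08 and 6.03 CPM in IR, with no overlap. Its log2 fold change was -0.43 (SE 0.20, edgeR adjusted p = 0.25), or -0.077 corrected. Psmd10, also called gankyrin, helps to build the ATPase ring and had 6.77, 8.49 and 6.04 CPM in DIR, against 7.15, 9.41 and 8.75 CPM in IR. The groups overlapped, and the log2 fold change of -0.25 (SE 0.20, edgeR adjusted p = 0.50) was -0.68 with the correction, at a GC content of 42.3%. As fitted it was -0.15 without DIR3 and -0.40 without DIR2. Psmd5 had 14.04, 16.6 and 16.3 CPM in DIR, against 15.5, 13.4 and 14.8 CPM in IR, a log2 fold change of 0.11 (SE 0.14), or -0.17 corrected. The other 4 chaperones, Psmd9, Psmg1, Psmg2 and Psmg3, had log2 fold changes between -0.087 and 0.096. Psmc3ip matches the naming rule but encodes a partner protein of meiotic recombination and no subunit, and it had between 1.33 and 1.67 CPM in DIR and between 1.23 and 1.59 CPM in IR.

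Single libraries held many of the extreme values. DIR3 held the lowest of the 6 values for 24 of the 48 genes and IR3 for 15, while IR2 held the highest for 24. The median deviation of the 48 genes from their mean over 6 libraries was 0.01, -0.02 and -0.15 on the log2 CPM scale in DIR1, DIR2 and DIR3, against 0.04, 0.16 and -0.09 in IR1, IR2 and IR3. IR3 thus lay between DIR2 and DIR3. The deviation of the beta ring was -0.02, -0.10 and -0.21 in DIR, against 0.13, 0.28 and -0.11 in IR. The activators took another order, with 0.05, -0.01 and 0.11 in DIR, against -0.06, 0.15 and -0.12 in IR.

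**Figure D5:**
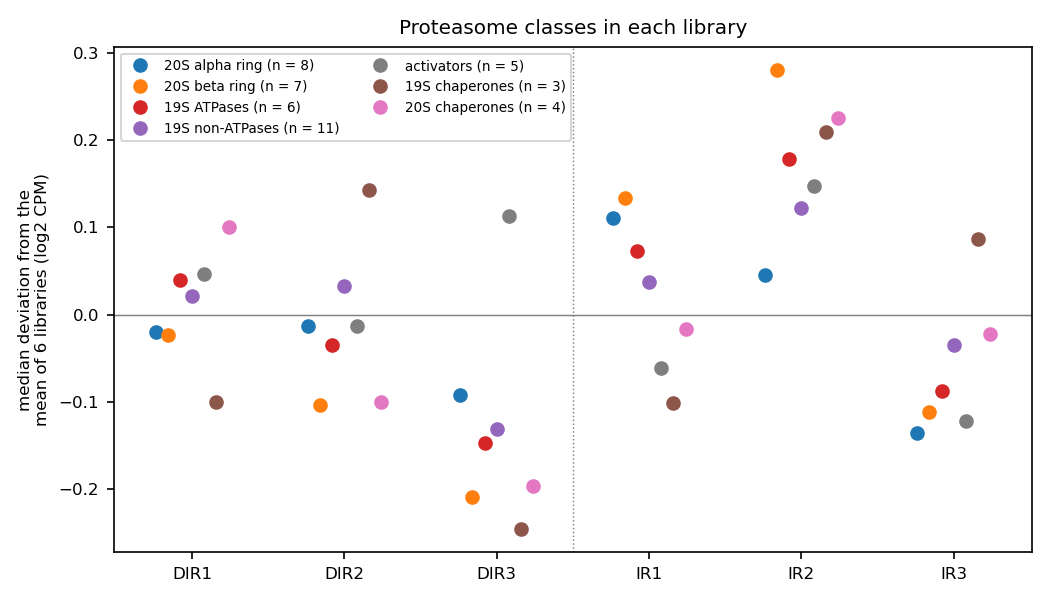
Median deviation of each proteasome class from its mean over the 6 libraries (log2 CPM), with DIR libraries on the left and IR libraries on the right, 1 point per class and library. DIR3 and IR3 lie mostly below 0 and IR2 lies above 0 for all 7 classes.

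Genes that work with the proteasome were read from 5 lists and compared in the same fit, where none passed the edgeR threshold. Of 13 partners tested, 4 were higher in DIR at an unadjusted p under 0.05, beside 12.5% of all tested genes, and 1 was lower, beside 9.03%. The ubiquitin ligase Ube3a, which binds the cap, had 52.6, 54.6 and 71.4 CPM in DIR, against 21.3, 12.4 and 40.6 CPM in IR, and each DIR library lay above each IR library. Its log2 fold change was 1.26 (SE 0.38, edgeR adjusted p = 0.12), or 0.24 corrected. Ecpas, which tethers the cap to the core and is known from yeast as Ecm29, had 161, 186 and 188 CPM in DIR, against 151, 133 and 137 CPM in IR, a log2 fold change of 0.35 and -0.058 corrected. Uchl5, a deubiquitinase of the cap, had 12.2, 16.98 and 16.5 CPM in DIR, against 9.95, 8.94 and 11.6 CPM in IR, a log2 fold change of 0.58 and -0.017 corrected. Its receptor in the cap, Adrm1, had 61.4, 37.9 and 40.7 CPM in DIR, against 62.7, 66.7 and 62.7 CPM in IR, all DIR libraries below all IR libraries, with DIR1 close to IR1. The log2 fold change of Adrm1 was -0.46 (SE 0.18, edgeR adjusted p = 0.18), or -0.10 corrected. The core maturation factor Pomp had 53.1, 58.0 and 57.2 CPM in DIR, against 55.0, 62.6 and 44.2 CPM in IR, and a log2 fold change of 0.056 (SE 0.14), or 0.060 corrected. DESeq2 with the GC and length correction called 3 of the 13 partners lower, beside 0.874% of all genes. These were Sem1, a small subunit of the cap, at -1.28 (adjusted p = 0.0015), Txnl1, a thioredoxin-like protein that binds the cap, at -0.83 (adjusted p = 0.012), and Zfand5, which can activate the proteasome, at -0.76 (adjusted p = 0.028). Their log2 fold changes as fitted by edgeR were -0.27, 0.018 and 0.10, and their GC contents 37.3%, 39.2% and 39.8%. In edgeR with the correction each had an adjusted p of 0.31. Corrected by the longest transcript in edgeR, Sem1 had -0.62, Txnl1 -0.69 and Zfand5 -0.67. The deposited length of Sem1 was 477 bases, while the principal transcript used for its correction has 1472 bases.

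Of 12 tested genes that control proteasome transcription, 2 were higher in DIR at an unadjusted p under 0.05, beside 12.5% of all tested genes, and 4 were lower, beside 9.03%. Nfe2l1 itself had 458, 430.0 and 427 CPM in DIR, against 487, 593 and 534 CPM in IR, with no overlap. The transcript had a log2 fold change of -0.30 (SE 0.12, edgeR adjusted p = 0.19), or -0.17 corrected. The small MAF proteins pair with NRF1 on DNA, and Mafk had 117, 108 and 100.01 CPM in DIR, against 169, 219 and 108 CPM in IR, and Maff had 74.5, 61.5 and 56.0 CPM in DIR, against 107, 181 and 64.5 CPM in IR. For both, IR1 and IR2 lay above all DIR libraries and IR3 did not. Their log2 fold changes were -0.61 and -0.87, with -0.38 and -0.57 corrected, and -0.35 and -0.42 without IR2. Ngly1, which removes sugar chains from NRF1 during its activation, had 23.0, 25.1 and 32.7 CPM in DIR, against 20.0, 20.3 and 19.2 CPM in IR, a log2 fold change of 0.44 (SE 0.15, edgeR adjusted p = 0.15), or -0.020 corrected.

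Of 14 tested ubiquitin and delivery genes, 1 was higher in DIR at an unadjusted p under 0.05, beside 12.5% of all tested genes, and 3 were lower, beside 9.03%. The polyubiquitin gene Ubb had 417, 332 and 270.2 CPM in DIR, against 470.4, 682 and 479 CPM in IR, with no overlap (log2 fold change -0.68, SE 0.20, edgeR adjusted p = 0.11, corrected -0.49). DESeq2 called Ubb lower at an adjusted p of 0.018. The alternative ubiquitin-activating enzyme Uba6 had 9.28, 8.39 and 10.2 CPM in DIR, against 3.62, 1.91 and 5.17 CPM in IR, so that each DIR library lay above each IR library. Its log2 fold change was 1.38 (SE 0.32, edgeR adjusted p = 0.10), or 0.42 corrected.

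Of 8 muscle ubiquitin ligases, which mark sarcomeric and regulatory proteins for the proteasome, 2 were higher and 2 lower in DIR at the same threshold, beside 12.5% and 9.03% of all tested genes. Fbxo30 had 44.9, 49.4 and 59.5 CPM in DIR, against 33.2, 26.4 and 26.6 CPM in IR, a log2 fold change of 0.83 (SE 0.15, edgeR adjusted p = 0.10), or -0.14 corrected. Mdm2, the ligase of p53, had 69.7, 66.3 and 71.7 CPM in DIR, against 50.8, 49.5 and 50.6 CPM in IR, with narrow groups well apart (log2 fold change 0.46, SE 0.11, edgeR adjusted p = 0.10, corrected 0.29). Trim54 (MuRF3) had 99.8, 105 and 78.4 CPM in DIR, against 125, 135 and 125 CPM in IR (log2 fold change -0.44, SE 0.14, edgeR adjusted p = 0.12, corrected -0.071).

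Of 13 genes of class I antigen presentation and the interferon response, which use the peptides the proteasome makes, 2 were higher and 1 lower in DIR at an unadjusted p under 0.05, beside 12.5% and 9.03% of all tested genes, which is near these shares. B2m, the light chain of class I molecules, had 409.8, 450.1 and 382 CPM in DIR, against 313, 302 and 278 CPM in IR, with no overlap (log2 fold change 0.48, SE 0.12, edgeR adjusted p = 0.11, corrected -0.0021). Erap1, which trims peptides, had 38.3, 41.4 and 47.2 CPM in DIR, against 31.4, 26.3 and 34.1 CPM in IR (log2 fold change 0.47, SE 0.14, edgeR adjusted p = 0.12, corrected -0.14). Tapbp, which loads them, had 103, 83.1 and 77.4 CPM in DIR, against 106, 119 and 111 CPM in IR (log2 fold change -0.35, SE 0.14, edgeR adjusted p = 0.18, corrected -0.11). B2m and Erap1 are low in GC content, at 41.2% and 41.5%, and Tapbp is high at 57.1%.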

How the data were processed

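Libraries were made from 1 µg of RNA by poly-T selection, per the labels. The authors deposited raw counts per gene with gene lengths. The submitters' processing notes name HTSeq, Trim Galore and the build mm9. No source used here states the aligner, annotation or strand setting, so the counts of the 12 proteasome genes whose exons overlap another gene of the table are uncertain (Psma4, Psma5, Psmb5, Psmb7, Psmb8, Psmc3, Psmc3ip, Psmd1, Psmd3, Psmd13, Psme1 and Psme2b), as are those of Psmd9 and Psmg3, which overlap genes outside it. Symbols matched 32897 identifiers. The 5 summary rows naming no gene stayed out. Reads with no unique place made up 31.2%, 39.5% and 39.4% in DIR1, DIR2 and DIR3. In IR1, IR2 and IR3 they made up 31.4%, 28.6% and 28.0%.

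Counts were tested with edgeR 4.0.16 (TMM, filterByExpr, robust quasi-likelihood fit) in R 4.3.3, with Benjamini-Hochberg adjustment over all 14738 tested genes. CPM are TMM-scaled. DESeq2 1.42.0, limma-voom 3.58.1 and a GC and length correction by offsets were alternatives. GC content came from the APPRIS principal transcript of GENCODE M21 (GRCm38). The exon overlaps were also taken from GENCODE M21, whose build differs from mm9, so they may not match the annotation used for counting. On counts simulated for this comparison (14499 genes tested), edgeR recovered 13 of 56 genes changed 1.5-fold and 52 of 73 changed 2-fold. Of its 144 calls, 10 were false. The simulated counts held no GC or length trend, unlike the measured ones, so these rates may not hold for the measured counts.

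The members and lists were chosen with earlier results of these data known. Genes named in full have the smallest p in each class (2 in its main direction, 1 in the other), with the cutting subunits and activators. Psma2, Psma3, Psmb3, Psmb4, Psmd1, Psmd12, Sem1, Txnl1 and Zfand5 were added after their values were seen.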

Additional observations from a re-analysis of the deposited data

How the results depend on the processing

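Among the genes named by rule, the log2 fold changes of the following reversed under GC and length correction. Values are for edgeR, edgeR with the replicate block, edgeR by the longest transcript and DESeq2, in this order, where all 4 reversed. Psmc6 had -0.42, -0.41, -0.22 and -0.42, Psmd14 -0.10, -0.092, -0.033 and -0.10, Psmd5 -0.17, -0.18, -0.13 and -0.17. Psmb5 had 0.068, 0.067, 0.076 and 0.067, Psmb10 0.057, 0.060, 0.073 and 0.054, Psme1 0.17, 0.16, 0.19 and 0.16, Psme2 0.19, 0.19, 0.22 and 0.19. Ecpas had -0.058, -0.052, -0.045 and -0.058, Erap1 -0.14, -0.13, -0.075 and -0.13, Ngly1 -0.020, -0.020, -0.026 and -0.020, Uchl5 -0.017, -0.026, -0.035 and -0.019. Without the longest transcript among them, Psma1 had -0.048, -0.050 and -0.050, Psmd3 0.033, 0.034 and 0.032, Psmf1 -0.016, -0.016 and -0.015, B2m -0.0021, -0.0029 and -0.0011, Fbxo30 -0.14, -0.10 and -0.14. Psmc3 had 0.0027, 0.0041 and 0.024 in the 3 edgeR fits, and Psma7 0.095 by the longest transcript only. Psmb7 kept its direction but had -0.82 by the longest transcript. Of the genes added after their values were seen, Psma3, Psmb3, Psmd12, Txnl1 and Zfand5 also reversed in edgeR with the correction. Reversals of the remaining proteasome genes are not listed here. Psme2, near 0, also reversed with a mean CPM of at least 5 (0.014) and in limma-voom (0.023). Leaving out each library gave -0.068 to 0.18 for Pomp, -0.064 to 0.091 for Psme2 and -0.016 to 0.084 for Psmf1.

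In place of 0, the genes called across the table numbered 406 without a filter, 1264 in DESeq2, 2063 in limma-voom, 239 in DESeq2 with the correction, and 0 to 1251 when each library was left out, the most without IR3. Proteasome genes called numbered 1 without a filter, 1 in DESeq2, 3 in limma-voom, 1 in DESeq2 with the correction and 0 to 2 with a library left out. At an unadjusted p under 0.05, those higher numbered 1 in each corrected fit without the block and 1 to 3 with a library left out. Those lower numbered 5 without the mitochondrial genome in library sizes, 11 in limma-voom and 5 by the longest transcript. With the correction they numbered 6 in edgeR and in DESeq2, and with a library left out 0 to 10. In edgeR with the correction, 5.67% of all genes were higher and 6.25% lower. Shares for the lower counts with a library left out are given above. For the other counts here the share of all genes was not computed, so they show neither an excess nor a lack. Class medians moved with the correction to 0.011 for the ATPases (0.0085 in DESeq2), to -0.052 for the beta ring (-0.085 by the longest transcript, -0.051 in DESeq2), and to -0.17 for the alpha ring in DESeq2. The median of the alpha ring chaperones ranged between -0.21 and 0.11 with a library left out. The cause of these differences was not tested.

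Samples with the same replicate number did not deviate together (r = -0.05, 0.04 and 0.15), so the numbers were not used as pairs. With the replicate block, 636 genes were called across the table, and 58 with block and correction together. No proteasome gene was among them. Block and correction gave 0 proteasome genes higher and 6 lower at an unadjusted p under 0.05. The share of all genes at that threshold was not computed for this fit. Its medians were 0.011 for the ATPases and -0.053 for the beta ring. DESeq2 with the correction, the longest transcript and the ratio by principal transcript were added after seeing the data. The ratio of Psmb8 to Psmb5 was 0.196 in DIR and 0.223 in IR without division by length. Psma8, Psme2b and Psmg3, the scarcest tested genes beside Psmc3ip, had SE values of 0.56, 0.31 and 0.31, and the part of depth in these was not tested.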
